A study of Mus musculus with 9 samples.

Results

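The 6 matrix metalloprotease genes (Mmp2, Mmp3, Mmp9, Mmp10, Mmp13 and Mmp14), the transmembrane protease gene Adam8 and the protease inhibitor genes Timp1, Timp2 and Timp3 were followed in Lewis lung carcinoma (LLC) cells. These 10 genes are 10 of the 19505 that the array measured with a gene symbol. They were taken by symbol, and where a gene has several features the one with the highest mean signal over the 9 arrays was to be chosen by that mean, but 0 of the 10 had more than 1 feature. The list of genes was drawn up with earlier results on the same arrays in view, so the calls below describe these arrays and are not independent support for a pattern.

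LLC is a transplantable mouse lung tumour line; the cells were of its GFP-labelled derivative 3LL, with the strain given as C57/BL6. RNA was profiled in 3 groups of 3 samples: monolayer cultures kept in a dish for 7 days, GFP-positive cells isolated 7 days after subcutaneous transplantation, and GFP-positive cells isolated 7 days after transplantation into the lung. The series text also calls the last group's organ "BLM" lungs, an abbreviation it does not spell out. All groups carry the GFP label. Lung is named as the tissue of all 9 samples, those of the dish and subcutaneous groups included. The alveolar type II markers were below background on the dish and subcutaneous arrays. Nothing in the labels tells if the 3 samples per group are from different animals or dishes, or if animals were pooled. The p-values therefore cover no more than the scatter of these arrays, which could be technical.

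Matrix metalloproteases are zinc enzymes that are made as inactive precursors and cut collagens, proteoglycans, growth factors and each other. Stromelysins (Mmp3, Mmp10) and the collagenase Mmp13 are secreted, the gelatinases Mmp2 and Mmp9 cut basement membrane collagen, and Mmp14 sits in the plasma membrane, where it activates Mmp2 together with Timp2. Adam8 is a membrane protease best known from leukocytes and also found in tumour cells. The tissue inhibitors of metalloproteases (Timps) bind the active site of matrix metalloproteases. Timp3, unlike the others, is held in the matrix.

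Values are log2 signals as the authors deposited them, given per replicate or as mean ± SD with n = 3, and differences are log2 differences of group means with their standard error. Signals of different genes are not compared with each other. Background was set on each array at the 90th percentile of its negative control features, which ran from 7.20 to 7.73. By that guide Mmp3, Mmp14, Timp1 and Timp2 were above background on all dish and subcutaneous arrays, and on the lung arrays too, except that Mmp3 was below it on lung replicate 1. Adam8 was above it on lung replicate 3 alone. Mmp2, Mmp9, Mmp10, Mmp13 and Timp3 were below background on each of the 9 arrays, so for these 5 genes signals and adjusted p-values are given and no fold. RNA integrity numbers moved with the groups: they were 8.4 to 8.6 in the dish, 7.5 to 8.6 in the subcutaneous samples and 7.9 to 8.3 in the lung samples, so dish and lung did not overlap. With the RNA integrity number as a covariate, the lung against dish calls of Mmp10 (adjusted p = 0.0857) and Mmp14 (0.0827) and the subcutaneous against dish call of Timp1 (0.267) were lost. Across genes (no independent replicates), Pearson's r of 2 arrays was 0.980 to 0.991 within groups and 0.958 to 0.977 between groups. It was 0.991 between lung replicates 1 and 2, against 0.984 and 0.980 with lung replicate 3. The upper quartile of all genes was 8.55 to 8.68 on the lung arrays and 8.20 to 8.49 on the others, and the scaling the authors applied is not given in the sources used here. Of the markers of the line used as a check, keratin 8 (Krt8) and vimentin (Vim) were above background on all 9 arrays, while keratin 18 (Krt18) was below it on all 3 dish arrays and on lung replicate 2.

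Mmp3 and Mmp10 lie in 1 cluster of 10 Mmp genes on mouse chromosome 9, as does Mmp13. Promoters of 8 of the 10 genes were matched in a RefSeq table (build GRCm38.p6, 250 bases before to 50 bases after the annotated start); those of Mmp2 and Mmp9 are not among them. The promoters below are shown because the 3 genes of the cluster carry the same pair of motifs and Timp1 carries a variant of one of them. They lie on the plus strand at chr9:7445572-7445871 for Mmp3, chr9:7502092-7502391 for Mmp10, chr9:7272264-7272563 for Mmp13 and chrX:20869916-20870215 for Timp1. Capitals mark the AP-1 motif TGANTCA, its variant TGAGTAA and the TATA box TATAAA.
Mmp3: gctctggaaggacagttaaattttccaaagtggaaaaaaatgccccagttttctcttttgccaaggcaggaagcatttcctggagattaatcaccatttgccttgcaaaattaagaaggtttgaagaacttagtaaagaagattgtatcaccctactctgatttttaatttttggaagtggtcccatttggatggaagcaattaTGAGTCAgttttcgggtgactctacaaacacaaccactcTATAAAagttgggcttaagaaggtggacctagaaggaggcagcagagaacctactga
Mmp10: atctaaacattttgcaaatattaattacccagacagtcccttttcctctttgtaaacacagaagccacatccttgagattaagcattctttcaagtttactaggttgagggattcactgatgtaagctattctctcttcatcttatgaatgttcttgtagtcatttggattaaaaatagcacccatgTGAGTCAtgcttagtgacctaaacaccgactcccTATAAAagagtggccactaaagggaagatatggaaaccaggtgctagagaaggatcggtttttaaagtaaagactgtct
Mmp13: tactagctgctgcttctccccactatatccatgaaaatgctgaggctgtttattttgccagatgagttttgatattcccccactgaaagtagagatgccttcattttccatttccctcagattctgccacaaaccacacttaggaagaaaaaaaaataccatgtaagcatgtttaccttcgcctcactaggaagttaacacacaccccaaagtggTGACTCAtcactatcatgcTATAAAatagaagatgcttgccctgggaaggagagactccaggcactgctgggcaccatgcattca
Timp1: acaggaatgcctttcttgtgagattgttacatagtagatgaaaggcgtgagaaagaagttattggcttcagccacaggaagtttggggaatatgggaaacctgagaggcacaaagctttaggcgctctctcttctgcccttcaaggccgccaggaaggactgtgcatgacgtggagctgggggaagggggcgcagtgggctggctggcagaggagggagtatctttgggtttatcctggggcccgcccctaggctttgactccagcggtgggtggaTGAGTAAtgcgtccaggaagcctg

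Both strands were searched, and positions count from the annotated start, with negative numbers before it. The AP-1 motif stood at -46 to -40 in Mmp3, -63 to -57 in Mmp10 and -35 to -29 in Mmp13, with the TATA box downstream of it at -7 to -2, -29 to -24 and -16 to -11. Of all 32817 promoters, 7.81% hold TGANTCA and 13.6% hold TATAAA. The Timp1 promoter holds TGAGTAA at 27 to 33 after the start, a motif found in 2.68% of all promoters, and neither TGANTCA nor TATAAA. The promoters of Adam8, Mmp14, Timp2 and Timp3 hold none of these 3 motifs in this window. All 4 hold the GC box GGGCGG, as does that of Timp1, with 35.6% of all promoters. The ETS core AGGAAG was found in Mmp3, Mmp13, Mmp14, Timp1 and Timp3 (35.4% of all promoters) and the Runx core AACCACA in Mmp13 (5.27%). The motifs searched do not overlap each other in these promoters. A match is a run of letters and not evidence that a factor binds.

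Between the groups the set moved in mixed directions. Mmp3 was highest in the dish, lower under the skin and lowest in the lung; Adam8 and Mmp14 were highest in the lung; Timp1 was lowest under the skin; and Timp2 varied least among the genes above background. By limma with Benjamini-Hochberg adjustment over all genes, 3 of the 10 genes were called higher in lung than in subcutaneous samples (Adam8, Mmp9, Timp1) and 1 lower (Mmp3). Over all 19505 genes 9.21% were called higher and 5.79% lower in that comparison. Between lung and dish 3 were higher (Adam8, Mmp9, Mmp14) and 2 lower (Mmp3, Mmp10), beside 4.81% and 1.97% of all genes. Between subcutaneous and dish samples 0 were higher and 3 lower (Mmp3, Mmp10, Timp1), beside 6.41% and 6.47%; 2 members, Mmp2 and Adam8, were higher there at an unadjusted p under 0.05. The median difference of the 10 genes was 0.36, -0.19 and 0.16 in the 3 comparisons, against -0.069, -0.074 and -0.014 over all genes. After quantile normalization the calls between lung and dish over all genes split into 663 higher and 551 lower, against 938 and 384 as deposited; of the members Mmp14 lost its call and the other 4 called genes stayed on the same side. Leaving out 1 array at a time gave 2 to 5 members called between lung and subcutaneous, 2 to 5 between lung and dish and 2 to 4 between subcutaneous and dish. The lowest were 2 between lung and subcutaneous samples without subcutaneous replicate 3, and 2 between lung and dish without dish replicate 3. Without dish replicate 2, lung replicate 1 or lung replicate 2 the latter comparison had 3. The comparisons share groups pairwise and are not independent of each other.

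**Figure D1:**
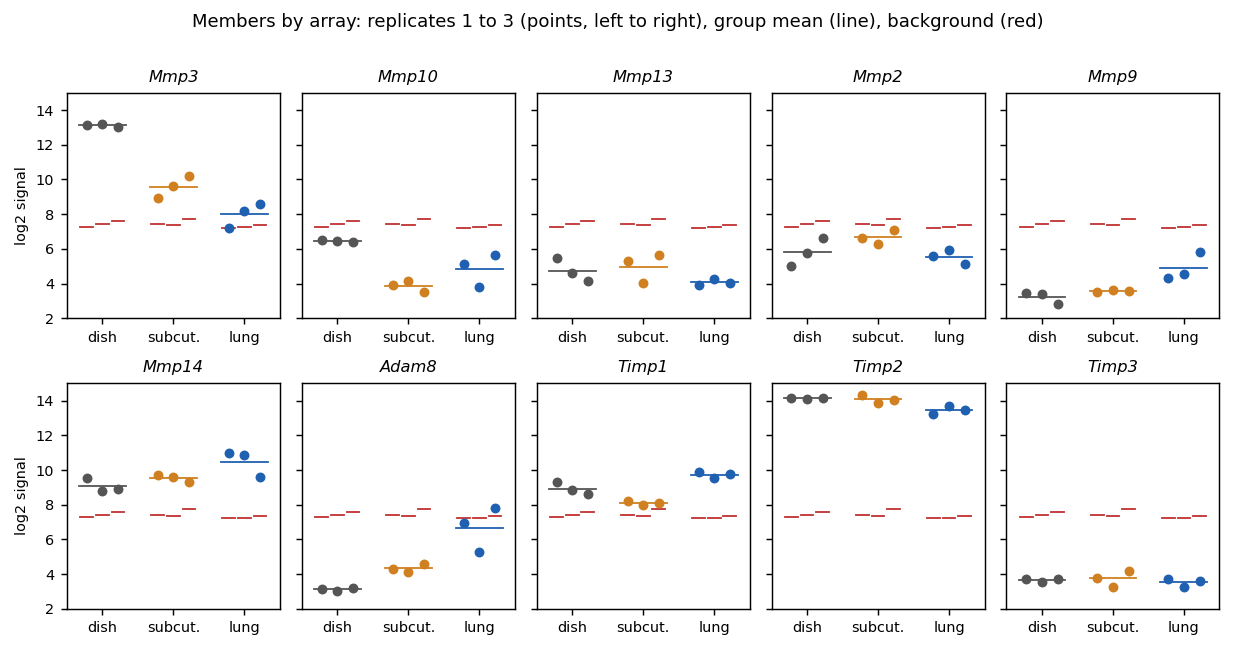
Log2 signal (vertical axis) of the 10 genes in the dish, subcutaneous and lung samples. Points are replicates 1 to 3 from left to right, horizontal lines group means and red ticks the 90th percentile of the negative controls on that array; Mmp3 falls from about 13.12 in the dish to 7.99 in the lung, and 5 genes stay under the red ticks throughout.

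Mmp3, stromelysin-1, which cuts proteoglycans and several matrix proteins and can activate other Mmps, showed the widest span of group means of the 10 genes. Its signal was 13.15, 13.21 and 13.01 in dish replicates 1 to 3, 8.91, 9.62 and 10.22 in the subcutaneous samples and 7.19, 8.20 and 8.58 in the lung samples. The 3 groups did not overlap. Mmp3 fell by 5.13 ± 0.37 (SE) from dish to lung, 35.1-fold (limma, adjusted p = 1.07e-05), and by 3.54 from dish to subcutaneous, 11.6-fold (adjusted p = 6.22e-05). These 2 calls were kept under all 17 alternative settings. From subcutaneous to lung it fell by 1.59 ± 0.37, 3.01-fold (adjusted p = 0.0128). That smaller difference was no longer called when subcutaneous replicate 3 was left out (-1.27, adjusted p = 0.0532), nor when lung replicate 1 was (-1.19, 0.0637). Its adjusted p ran from 0.00358 to 0.0637 over the alternatives. Lung replicate 1, the lowest array, was at 7.19 against a background of 7.20. In samples of sorted cells, fewer cells that make a transcript and less transcript per cell cannot be told apart.

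Mmp10, stromelysin-2, is the nearest relative of Mmp3 among the 10 genes. It stood at 6.52, 6.48 and 6.38 in the dish, 3.93, 4.16 and 3.54 in the subcutaneous samples and 5.12, 3.78 and 5.67 in the lung samples, all below background. The dish arrays lay above all others, and the subcutaneous and lung arrays overlapped. Mmp10 was called lower in subcutaneous than in dish samples (adjusted p = 0.000724), under all 16 alternatives that tested it. It was also called lower in lung than in dish samples (adjusted p = 0.0256), under 10 of 16, with adjusted p from 0.00591 to 0.093. Without dish replicate 1, 2 or 3, lung replicate 1 or lung replicate 2 that call was lost. Without lung replicate 2 Mmp10 was called higher in lung than in subcutaneous samples (adjusted p = 0.00723), where the value with all arrays was 0.11.

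Mmp13, collagenase-3, which cuts fibrillar collagen, was at 5.49, 4.61 and 4.14 in the dish, 5.29, 4.01 and 5.64 under the skin and 3.92, 4.28 and 4.01 in the lung. Its groups overlapped in each pair and it was not called in any comparison (adjusted p = 0.162 to 0.79). Without subcutaneous replicate 2 it was called lower in lung than in subcutaneous samples (adjusted p = 0.0294).

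The chromosome 9 cluster holds, in order, Mmp13, Mmp12, Mmp1b, Mmp3, Mmp1a, Mmp10, Mmp8, Mmp27, Mmp20 and Mmp7, with 0 other protein-coding genes between them in the RefSeq table. Mmp27 was not analysed here. Of the 9 measured, Mmp3 and Mmp12 were above background on any array. Mmp12, the macrophage elastase, was at 5.34, 6.26 and 6.18 in the dish, 5.44, 6.86 and 3.48 under the skin and 5.78, 8.05 and 7.48 in the lung. It was above background on lung replicates 2 and 3 and was not called between lung and subcutaneous samples (1.84, adjusted p = 0.10) or lung and dish samples (adjusted p = 0.37). Of the 9 genes, Mmp3 and Mmp10 alone were called in a comparison.

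**Figure D2:**
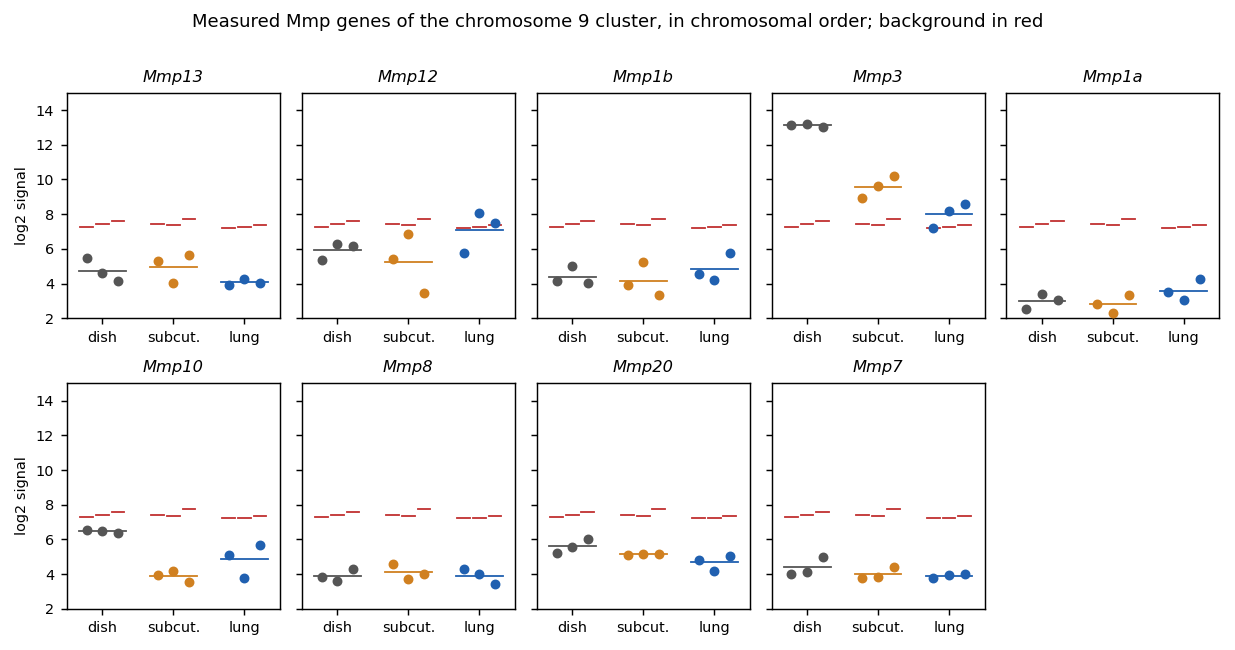
Log2 signal (vertical axis) of the 9 measured Mmp genes of the chromosome 9 cluster, in their order along the chromosome, in the 3 groups. Points are replicates 1 to 3 from left to right, lines are group means and red ticks background; Mmp3 is the 1 gene above the ticks in the dish and subcutaneous samples, and Mmp12 passes them on 2 lung arrays.

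The gelatinases were near the floor of the array. Mmp2, gelatinase A, was at 5.03, 5.77 and 6.61 in the dish, 6.62, 6.28 and 7.11 in subcutaneous samples and 5.58, 5.92 and 5.15 in lung samples. The lung and subcutaneous arrays did not overlap, yet the difference was not called with all arrays (adjusted p = 0.0614); it was called without dish replicate 1 (adjusted p = 0.0378) or dish replicate 3 (0.0353), or with these 2 groups alone (0.0403). Over the 16 alternatives that tested it the range was 0.0353 to 0.188. Without dish replicate 3 it was also called higher in subcutaneous than in dish samples (adjusted p = 0.0428, against 0.164 with all arrays). Mmp9, gelatinase B, was at 3.47, 3.39 and 2.80 in the dish, 3.52, 3.62 and 3.58 under the skin and 4.31, 4.57 and 5.84 in the lung. All 3 lung arrays lay above the other 6, and all 9 were below background. Mmp9 was called higher in lung than in subcutaneous samples (adjusted p = 0.0234) and than in dish samples (adjusted p = 0.0131). The first call was lost without lung replicate 3 or any of the 3 subcutaneous arrays (adjusted p = 0.0541 to 0.0586) and the second without dish replicate 3 (0.0646).

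Mmp14, the membrane-type protease that activates Mmp2, was at 9.56, 8.79 and 8.89 in the dish, 9.69, 9.58 and 9.29 under the skin and 10.96, 10.85 and 9.59 in the lung. Lung replicates 1 and 2 stood above all other arrays, and lung replicate 3 lay within the subcutaneous range. Mmp14 rose by 1.38 ± 0.35 (SE) from dish to lung, 2.61-fold (adjusted p = 0.0335). The call held under 10 of 17 alternatives, with adjusted p from 0.00199 to 0.146. It was lost without dish replicate 2 (0.139), dish replicate 3 (0.114), lung replicate 1 (0.146) or lung replicate 2 (0.127), and after quantile normalization (1.09, adjusted p = 0.0628). Between lung and subcutaneous samples the difference was 0.94, with a 95% interval of 0.18 to 1.70, and was not called (adjusted p = 0.093). Leaving out lung replicate 3 gave a call (1.38, adjusted p = 0.00799), and so did array weights (1.20, 0.0207). Over the alternatives the range was 0.00799 to 0.311. Dish and subcutaneous samples differed by 0.44 (interval -0.32 to 1.20, adjusted p = 0.487).

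Adam8 was at 3.12, 3.00 and 3.22 in the dish, 4.30, 4.11 and 4.57 under the skin and 6.96, 5.27 and 7.79 in the lung. The 3 groups did not overlap. The dish and subcutaneous arrays and lung replicates 1 and 2 were below background, so a difference from the lung group rests on background on the lower side and yields no lower bound above 0. In the signals as deposited Adam8 rose by 3.56 ± 0.47 (SE) from dish to lung (adjusted p = 0.000943) and by 2.35 ± 0.47 from subcutaneous to lung (adjusted p = 0.00514). Both calls were kept under all 16 alternatives that tested Adam8, the second with differences from 1.79 (without lung replicate 3) to 3.05 (without lung replicate 2). The filter on dim genes, which kept genes above background on at least 3 arrays, left Adam8 out. It also left out Mmp2, Mmp9, Mmp10, Mmp13 and Timp3. Subcutaneous and dish arrays, all below background, were not called apart with all arrays (adjusted p = 0.114) and were without lung replicate 2 (0.0119) or lung replicate 3 (0.0416), or with these 2 groups alone (0.00843).

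Timp1, the secreted inhibitor that also acts as a growth signal, was at 9.32, 8.83 and 8.59 in the dish, 8.22, 7.98 and 8.12 under the skin and 9.87, 9.54 and 9.79 in the lung. Its 3 groups did not overlap, with the lung highest and the subcutaneous samples lowest. With the 95th percentile of the negative controls as background, Timp1 was below it on all 3 subcutaneous arrays and on dish replicate 3. Timp1 rose by 1.62 ± 0.25 (SE) from subcutaneous to lung, 3.08-fold (adjusted p = 0.00113), and kept that call under all 17 alternatives, with differences from 1.33 to 1.72. From dish to subcutaneous it fell by 0.81 (adjusted p = 0.049), a call kept under 4 of 17 alternatives (adjusted p = 0.0186 to 0.267). It was lost when any array other than dish replicate 3 was left out (0.053 to 0.166). Lung and dish differed by 0.82 (interval 0.28 to 1.35, adjusted p = 0.0682), which was called without dish replicate 1 (1.02, adjusted p = 0.0387), with array weights (0.0155) and with the filter on dim genes (0.0284), in a range of 0.0155 to 0.26. Timp1 lies within the span of the synapsin gene Syn1. The Syn1 feature read 7.57, 7.45 and 6.02 in the dish, 7.26, 7.31 and 6.82 under the skin and 9.02, 9.56 and 8.11 in the lung. It was below background on all 3 subcutaneous arrays and on dish replicate 3, so the differences below rest in part on background. In the signals as deposited Syn1 was called higher in lung than in subcutaneous samples (1.76, adjusted p = 0.0144) and than in dish samples (1.88, adjusted p = 0.0193). Leaving out subcutaneous replicate 3 (0.0544) ended the first call, as did leaving out lung replicate 1 (0.0573) or 2 (0.0645). The second was lost without dish replicate 3 (0.0723), lung replicate 1 (0.0752) or lung replicate 2 (0.0798). Whether either feature reads the other gene's transcripts was not tested.

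Timp2, which blocks Mmp2 and with Mmp14 also helps to activate it, was at 14.14, 14.11 and 14.17 in the dish, 14.32, 13.87 and 14.04 under the skin and 13.22, 13.70 and 13.47 in the lung. The lung arrays lay below the other 6, while dish and subcutaneous arrays overlapped. The lung differed by -0.61 from subcutaneous (interval -1.12 to -0.11, adjusted p = 0.0975) and by -0.67 from dish samples (interval -1.18 to -0.17, adjusted p = 0.106), and neither was called with all arrays. Both were called with the filter on dim genes (adjusted p = 0.041 and 0.0436) and with an intensity trend (0.0368 and 0.039), and the second also with array weights (0.029). Over the alternatives adjusted p ran from 0.0368 to 0.308 for the first and from 0.029 to 0.325 for the second. Dish and subcutaneous samples differed by -0.061 (interval -0.56 to 0.44). Timp3, the matrix-bound inhibitor that also blocks several Adam proteases, was at 3.55 to 3.71 in the dish, 3.28 to 4.16 under the skin and 3.27 to 3.70 in the lung. All of these values were below background and overlapped between groups, so they give no order of levels.

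**Figure D3:**
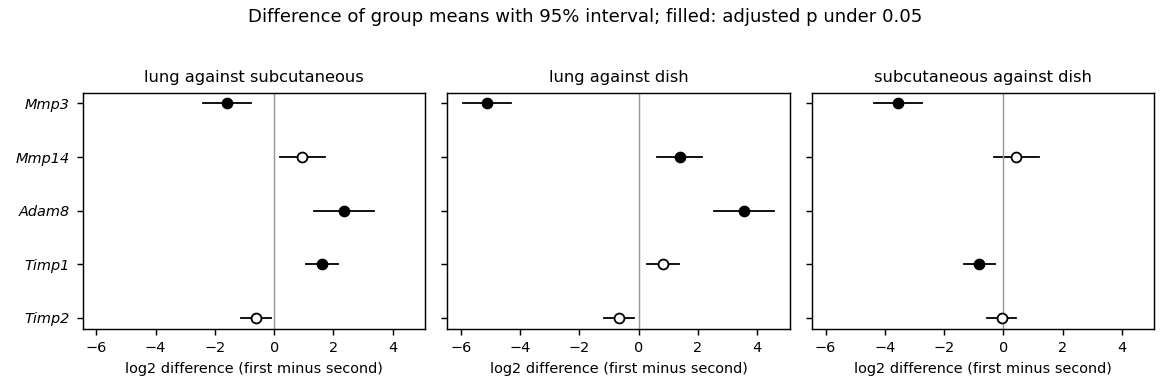
Log2 difference of group means (horizontal axis, first group minus second) for the 5 genes above background on at least 1 array, in the 3 comparisons. Bars are 95% intervals of the limma fit and filled points have an adjusted p under 0.05; Mmp3 lies left of 0 throughout, Adam8 rests on background in dish and subcutaneous samples and is not drawn where both groups were below it, and Timp1 is right of 0 against subcutaneous and left of it for subcutaneous against dish.

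Markers of other cell types moved between the groups as well. Of the lists for leukocytes in general (4 genes), neutrophils (7 of 8 genes measured), endothelium (6), smooth muscle (4) and T and NK cells (4), 0 genes were above background on any array. In the monocyte and macrophage list the 4 genes Adgre1, Csf1r, C1qa and Itgam were below background on all arrays, and 2 of 6 passed it in the lung, Mrc1 on lung replicate 1 and Lyz2 on lung replicates 1 and 3. The mean signal of that list was 4.41 to 5.02 in the dish, 4.886 to 4.996 under the skin and 4.89 to 5.81 in the lung. Of 5 alveolar macrophage genes Fabp4 alone passed background, in each group. The alveolar type II list had a mean of 6.99 to 9.12 in the lung against 4.38 to 4.80 in the dish and 4.54 to 4.72 under the skin, with Sftpc and Sftpa1 above background on all 3 lung arrays and Sftpb on lung replicate 3 alone. The airway secretory list had 4.04 to 4.75, 4.33 to 4.69 and 5.49 to 11.15 in dish, subcutaneous and lung samples. The fibroblast list had 4.76 to 4.94, 8.42 to 8.44 and 5.38 to 6.16, with Dcn, Lum and Dpt of 6 genes above background on all subcutaneous arrays. In the lung Dcn was above background on all 3 arrays (13.94, 12.15 and 10.53) and called higher than in the dish (5.15, adjusted p = 0.000455). Dcn was below background on dish replicates 2 and 3, so that difference rests in part on background. Lum was above background on lung replicates 1 and 2.

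On lung replicates 1, 2 and 3 Adam8 (6.96, 5.27 and 7.79) ranked as Lyz2 did (9.68, 6.32 and 10.04) and as the surfactant gene Sftpc did (15.59, 13.45 and 16.37). Lcn2, whose product binds Mmp9, had the same rank (7.92, 6.37 and 8.78). Adam8 was below background on lung replicates 1 and 2, and Lyz2 and Lcn2 on lung replicate 2, so these ranks order in part values that were not above background. Mrc1, of the same list as Lyz2, ranked differently (7.60, 5.70 and 6.40), with lung replicate 1 highest. How many of all genes share the order of Adam8 over these 3 arrays was not counted. Mmp14 was lowest on lung replicate 3 (9.59), where the club cell gene Scgb1a1 was highest (6.31, 9.83 and 13.68). The fibroblast gene Dcn ranked as Mmp14 did on these arrays (13.94, 12.15 and 10.53). Lum, of the same list as Dcn, was also lowest on lung replicate 3 (7.33, 7.51 and 6.38), where it was below background. The SD over the lung arrays was 0.17 for Timp1, 1.51 for Sftpc and 3.69 for Scgb1a1. Which cells the Mmp14 and Timp1 signals came from was not tested. The fibroblast list was highest under the skin, where Mmp3 lay between its dish and lung levels and Timp1 was lowest. The mean of Mmp2 was 6.67 there, against 5.81 in the dish and 5.55 in the lung, all below background. With all arrays Mmp2 was called in no comparison, and dish replicate 3 (6.61) lay within its subcutaneous range. Whether cells of these types were among the samples was not tested, nor was any part of theirs in the differences of the 10 genes.

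**Figure D4:**
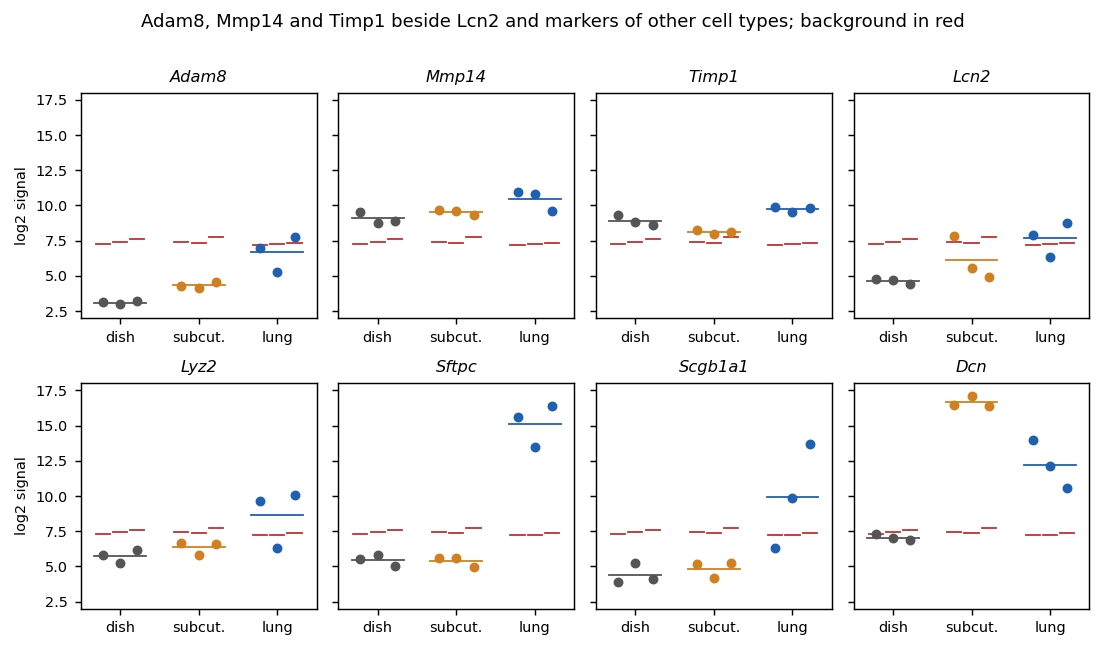
Log2 signal (vertical axis) of Adam8, Mmp14 and Timp1 beside Lcn2 and the markers Lyz2 (macrophage and alveolar type II), Sftpc (alveolar type II), Scgb1a1 (club cell) and Dcn (fibroblast). Points are replicates 1 to 3 from left to right, lines are group means and red ticks background; Adam8, Lcn2, Lyz2 and Sftpc are lowest on lung replicate 2 among the lung arrays, and Dcn is highest under the skin.

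Among the other genes of the system, written as lists with earlier results of these arrays known, 81 were measured. Between lung and subcutaneous samples 1 was called higher and 5 lower, beside 9.21% and 5.79% of all genes. Between lung and dish the counts were 9 and 1 (4.81% and 1.97% of all genes), and between subcutaneous and dish 13 and 1 (6.41% and 6.47%). These shares of all genes apply to each list below. Of 10 other secreted Mmps, 0 were called between lung and subcutaneous samples (3 at an unadjusted p under 0.05 by limma) and 0 between lung and dish (1), and 1 rose from dish to subcutaneous. This was Mmp11, stromelysin-3, at 8.66, 7.52 and 8.44 in the dish and 9.88, 10.32 and 9.52 under the skin (1.71, adjusted p = 0.00528). On the lung arrays it was at 8.57, 9.37 and 8.52. None of 5 other membrane-bound Mmps was above background or called in any comparison (unadjusted p under 0.05 for 0, 0 and 1). Of 11 other Adams, Adam9, Adam10 and Adam17 were above background on all 9 arrays. Adam17, the sheddase of tumour necrosis factor, rose from 9.80, 9.42 and 9.22 in the dish to 10.58, 11.02 and 10.69 under the skin (1.28, adjusted p = 0.00664) and was at 10.40, 10.57 and 9.83 in the lung. The other inhibitors Timp4, Reck, A2m and Tfpi2 were below background on all arrays, with 0 called in the 3 comparisons (unadjusted p under 0.05 for 0, 1 and 0). Mmp11 and Adam17 kept these calls under 16 of 17 alternatives each, losing them with RNA integrity as a covariate.

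Of 11 activators, partners and receptors, 0 rose and 2 fell from subcutaneous to lung, 2 rose and 1 fell from dish to lung, and 3 rose and 1 fell from dish to subcutaneous. Over all genes the higher and lower shares in these comparisons were 9.21% and 5.79%, 4.81% and 1.97%, and 6.41% and 6.47%. Lrp1, the endocytic receptor that clears metalloproteases and their inhibitors, was at 7.31, 6.55 and 6.23 in the dish, 9.91, 10.20 and 9.55 under the skin and 8.64, 8.50 and 8.66 in the lung. Lrp1 was below background on dish replicates 2 and 3, so its rises from the dish rest in part on background. Its groups did not overlap. It rose by 3.19 from dish to subcutaneous (adjusted p = 2.48e-05) and by 1.90 from dish to lung (0.00262). From subcutaneous to lung it fell by 1.29 (0.0111). These 3 calls were kept under all 17 alternatives. Cd44, the hyaluronan receptor that can hold Mmp9 at the cell surface, rose by 1.49 from dish to subcutaneous (adjusted p = 0.00584). Bsg, basigin, known as an inducer of metalloproteases in neighbouring cells, fell by 1.36 from dish to lung (adjusted p = 0.0347) and by 1.17 from dish to subcutaneous (0.0425). Bsg lost the first call without any dish array, lung replicate 1 or lung replicate 3 (0.0507 to 0.112) and the second without any dish or subcutaneous array (0.0516 to 0.142).

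The AP-1 and ETS factors act on the motifs searched in the promoters. Of 11 genes measured, 5 rose and 0 fell from dish to lung, beside 4.81% and 1.97% of all genes. From dish to subcutaneous 6 rose and 0 fell (6.41% and 6.47% of all genes), and from subcutaneous to lung 1 rose and 2 fell (9.21% and 5.79%). Fosb was at 6.27, 6.00 and 5.26 in the dish, below background, against 11.47, 11.01 and 10.27 under the skin and 11.79, 13.93 and 10.03 in the lung. The rise was at least 3.49 from dish to subcutaneous (adjusted p = 0.00043) and at least 4.49 from dish to lung (0.000455), counted against the background of the dish arrays. Jun rose by 2.67 from dish to subcutaneous (adjusted p = 0.000502) and by 1.89 from dish to lung (0.0105), Junb by 1.86 from dish to lung (0.00712), Etv4 by 1.79 from dish to subcutaneous (0.00149) and by 1.45 from dish to lung (0.0125), and Jund by 1.49 from dish to subcutaneous (0.00679). Jun was below background on dish replicate 3, and Ets1 on dish replicates 2 and 3 and on lung replicate 3. Fosl2 and Ets1 were the other 2 that rose from dish to subcutaneous. Fosl2 lost that call without dish replicate 2 (0.0901), dish replicate 3 (0.110) or subcutaneous replicate 2 (0.102), and with RNA integrity as a covariate (0.186), where Jund lost it too (0.0867). From subcutaneous to lung Ets1 fell by 1.06 (adjusted p = 0.0152) and Jund by 0.996 (0.049). The Jund difference between lung and subcutaneous samples was called under 5 of 17 alternatives, and of the leave-outs under that of lung replicate 2 alone. Ets1 lost its call there without lung replicate 1 (0.0677). Jun lost its call between lung and dish without dish replicate 3 (0.0539), and Etv4 without dish replicate 2 (0.0674), lung replicate 1 (0.0536) or lung replicate 2 (0.0547). Of the 3 members whose promoters hold the AP-1 motif, Mmp3 and Mmp10 were called lower than in the dish in both transplanted groups, and Mmp13 was called in no comparison, with a mean of 4.98 under the skin against 4.75 in the dish. Factor activity was not measured.

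**Figure D5:**
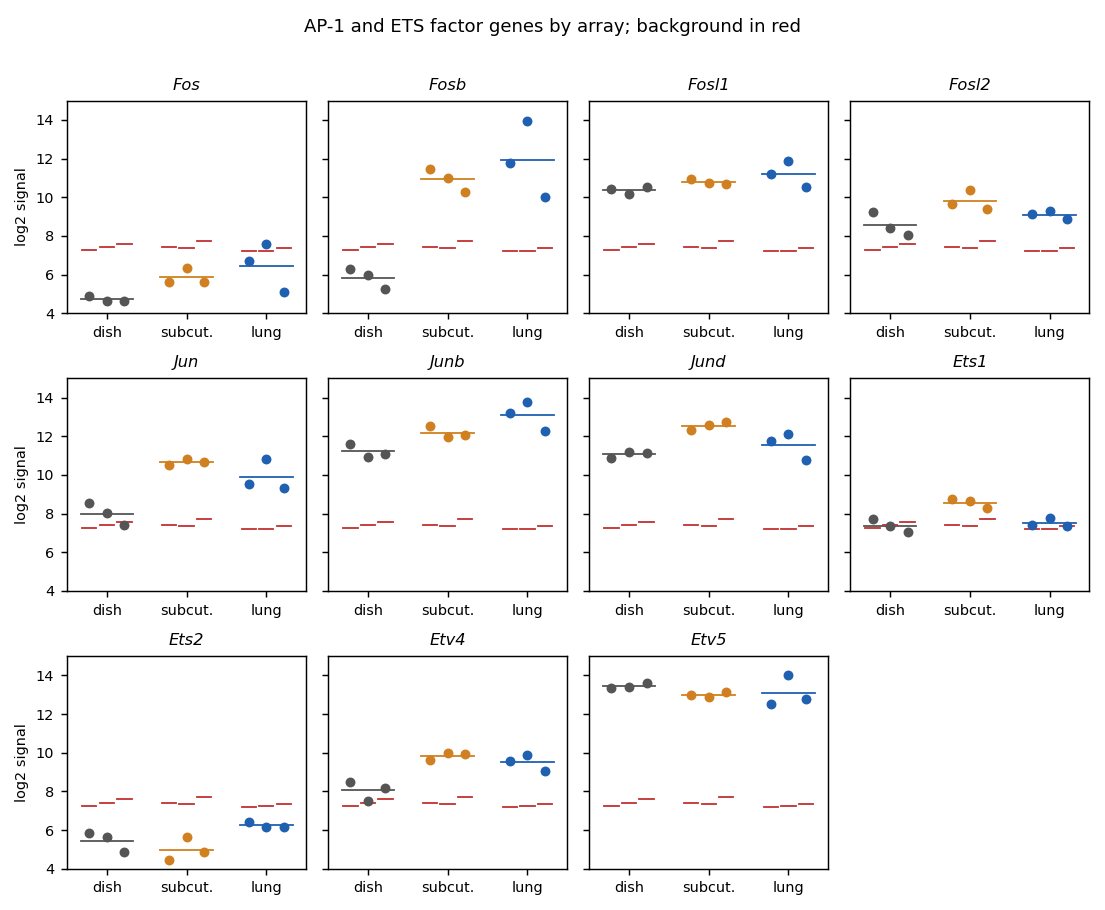
Log2 signal (vertical axis) of 11 AP-1 and ETS factor genes in the 3 groups. Points are replicates 1 to 3 from left to right, lines are group means and red ticks background; Fosb stands below the ticks in the dish and at 10.03 or more on every subcutaneous and lung array, while Ets2 stays below them.

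Of 11 inducing cytokines and growth factors Tgfb1 was the 1 gene called. It was at 8.85, 8.35 and 7.83 in the dish, 10.65, 10.50 and 10.37 under the skin and 10.50, 8.92 and 10.31 in the lung. Tgfb1 rose by 2.16 from dish to subcutaneous (adjusted p = 0.00223, kept under all 17 alternatives) and by 1.57 from dish to lung (0.0275). The latter was lost without dish replicate 2 (0.0963), dish replicate 3 (0.118), lung replicate 1 (0.13) or lung replicate 3 (0.0774), and after quantile normalization (0.071). Between lung and subcutaneous samples 0 of the 11 were called, with 0 at an unadjusted p under 0.05. Of 10 matrix substrates 0 were called in any comparison by limma, with 3, 0 and 3 at an unadjusted p under 0.05. The remaining called genes of these lists were named after their values were seen, since they were not above background on all arrays of a group: Adam23, Pcsk6 and Ets2 between lung and subcutaneous samples, Adamts4, Lcn2 and Fos between lung and dish, and Adamts8 and Pcsk6 between subcutaneous and dish. Adam23 and Fos kept their calls under 6 of 16 alternatives each, Ets2 under 12 of 16 and Lcn2 under 14 of 17, while Pcsk6 and Adamts8 kept theirs under all 16. Adam23 lost its call without any 1 dish array, subcutaneous replicate 2 or 3, or lung replicate 1 or 2 (0.0522 to 0.161). Fos lost it without any array but lung replicate 3 (0.0506 to 0.158). Ets2 lost it without subcutaneous replicate 1 or 3 or lung replicate 1 or 2 (0.0574 to 0.0904), and Lcn2 without dish replicate 2 or 3 or lung replicate 1 (0.0618 to 0.0656). Adamts4, an aggrecanase, was at 9.68, 8.70 and 6.42 in the lung against 5.97, 4.87 and 5.48 in the dish (adjusted p = 0.0146). Lung replicate 3 was below background, as were the dish arrays, so no lower bound is given. Adamts4 lost this call without dish replicate 2 or 3 or lung replicate 1 or 2 (0.0545 to 0.0789).

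The genes with the most similar course over the 9 arrays were sought for the 2 members with the widest span of group means, among genes above background on all arrays of a group. For Mmp3 they were the thrombin receptor gene F2r (Pearson's r = 0.97), Ddrgk1 (0.96) and the proteasome gene Psmc3 (0.96), of 6310 compared. For Adam8 they were the nucleoside phosphorylase gene Pnp2 (0.98), the phospholipase gene Pla1a (0.97) and Timm21 (0.97), of 6311. From dish to lung the difference was -1.08 for F2r and -0.89 for Psmc3, against -5.13 for Mmp3. It was 1.49 for Pnp2 and 1.45 for Pla1a, which cannot be set against that of Adam8, whose dish arrays were below background. The arrays fall into 3 groups, so such an r reflects the group means in large part and is a description of these 9 arrays.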

How the data were processed

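The authors deposited 1 table of log2 signals per feature, with 9 columns; per the labels' protocols, spin-column RNA was labelled with biotin as sense cDNA for a 1-colour array. How the table was normalized, with which software and on which build is not given in the sources used here. The values were used as deposited. Symbols came from the platform annotation, with 1 symbol for 19572 of 22206 gene features; where a gene had several features, that with the highest mean was kept. limma 3.58.1 in R 4.3.3 (lmFit, eBayes) was run on the 19505 genes and all 9 arrays with 3 group means; p-values were two-sided and adjusted by Benjamini-Hochberg over all genes, with calls at 0.05. The script was tested on simulated data. Background is the 90th percentile of 5222 negative controls. An "at least" value is the brighter group's mean minus the dimmer group's background. The number of arrays limits the precision. Groups and replicate numbers came from the titles. Members and lists were chosen with earlier results of these data known. Named were all members, up to 4 called genes per list and comparison that were above background on all arrays of a group, and the 3 most similar genes for the 2 members with the widest span. Alternatives covered normalization, a filter (above background on at least 3 arrays), trend, array weights, RNA integrity, a replicate block, the groups fitted, the feature rule and leaving out each array. Promoters came from RefSeq, build GRCm38.p6.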

Additional observations from a re-analysis of the deposited data

How the results depend on the processing

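Between lung and dish the counts of all genes called were 3039 with array weights and 856 with RNA integrity as a covariate, and 514 to 1442 when 1 array was left out. Between lung and subcutaneous samples leaving out 1 array gave 1476 to 2928. Between subcutaneous and dish samples the count was 1280 with RNA integrity as a covariate and 1639 to 2738 when 1 array was left out. Of the 10 members, 3 were called between lung and dish with RNA integrity as a covariate (Mmp3, Mmp9 and Adam8) and 7 with array weights (Timp1 and Timp2 added), and leaving out 1 array gave 2 to 5 there and 2 to 5 between lung and subcutaneous samples. Of the other pathway genes, array weights called 18 between lung and dish and 10 between lung and subcutaneous samples, and leaving out 1 array gave 4 to 11 and 2 to 11. The members above background on all dish or all subcutaneous arrays went from 4 to 3 with the 95th percentile as background, with Timp1 the gene that dropped out. Signs that turned belonged to uncalled differences. When 1 array was left out, the subcutaneous against dish difference ran from -0.098 (without subcutaneous replicate 3) to 0.71 for Mmp13, which was -0.073 without dish replicate 3, from -0.18 to 0.042 for Timp2, from -0.11 to 0.33 for Timp3 and from -0.38 to 0.39 for Syn1. The lung against dish difference of Mmp2 ran from -0.64 to 0.15. Timp2 was at 0.047 between subcutaneous and dish samples with RNA integrity as a covariate, and Timp3 at 0.010 between lung and dish after quantile normalization. The cause was not tested. Between same-numbered samples the r of deviations from group means was -0.057 to 0.085 across genes. Differently numbered samples were not compared in this way, so these values cannot settle whether same-numbered samples share an origin or a batch. With the replicate block Timp1 was at -0.81 between subcutaneous and dish samples with an adjusted p of 0.0527, Jund at -0.996 between lung and subcutaneous samples with 0.0539, and the block changed no other call of the genes named. All 10 members have 1 feature each, so the feature rule moved none of their values. Mmp2, Mmp9, Mmp10, Mmp13 and Timp3 were below background on all 9 arrays and Adam8 on 8 of them, which limits what their differences show.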
